A study of Mus musculus with 2 samples.

Results

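Among the genes measured in mouse pancreatic islets were 34 that serve protein folding and stress handling in the endoplasmic reticulum (ER), the compartment where secreted proteins such as insulin are folded. They were taken by symbol from the 32285 genes listed in each count matrix, and all 34 were found. By role they fall into 15 chaperones and folding enzymes, 7 genes of ER degradation, 5 stress sensors and regulators, 5 genes of the integrated stress response and 2 of the protein translocation channel. The samples were islets of NOD mice, a strain that develops autoimmune diabetes, put on a diet at 5 weeks of age and kept on it for 5 weeks. The diet was HAMS, a high-amylose maize starch, or HAMSAB, the same starch with acetyl and butyryl groups attached. Each diet gave 1 droplet single-cell library, and the labels do not give the number or sex of the mice behind it.

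ER folding genes are under the control of the unfolded protein response. When unfolded protein accumulates, the membrane sensors IRE1 (gene Ern1), PERK (Eif2ak3) and ATF6 (Atf6) are activated. IRE1 splices the messenger RNA of Xbp1, and the spliced XBP1 and the cleaved ATF6 proteins induce chaperones and ER degradation genes. PERK phosphorylates a translation initiation factor, which lowers protein synthesis in general while favouring ATF4 (Atf4), the transcription factor of the integrated stress response. Beta cells and antibody-secreting plasma cells carry heavy secretory loads and are known for high levels of these genes. Gene-level counts do not separate spliced from unspliced Xbp1 and do not show PERK phosphorylation.

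After filters, 4185 HAMS and 4628 HAMSAB cells remained, with medians of 704 and 705 unique molecular identifiers (UMIs, 1 per captured transcript) per cell. Cells were clustered without the 34 genes, and 13 classes with at least 20 cells in each library were kept. Of these, 10 carry a name from markers, written "-like", and 3 stay unnamed: cluster 1, led by Ppy and Pyy, cluster 3, led by Bcl2l14, Fscn1 and Xcr1, and cluster 5, led by Il1r2 and Ifitm1. Depth differed within classes: median UMIs per cell were 672.5 in HAMS and 811 in HAMSAB beta-like cells, and 961 and 783.5 in T-like cells. UMIs were summed per class and library and scaled to a total of 1000000 UMIs in that sum (CPM). A ratio is log2 of HAMSAB CPM over HAMS CPM. Ratios are discussed only for genes with at least 50 UMIs in the class over both libraries. Brackets after a value hold exact 95% intervals, which cover counting error only. With 1 library per diet there is no test of diet, and a diet difference cannot be told apart from a difference between those libraries. Transcripts also leaked between classes: the 10 beta markers summed to 3135 and 4727 CPM in T-like cells of HAMS and HAMSAB, against 126300 and 149100 CPM in beta-like cells.

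The promoters of several of these genes hold known response elements, and short stretches around such elements are shown because they differ between the chaperones and the integrated stress response genes. RefSeq gave a window from 250 bases before to 50 after the start (GRCm38.p6) for 30 of the 34 genes, with none for Hyou1, Manf, Derl1 and Atf6; Ero1lb is listed there as Ero1b. Both strands were searched for the ER stress element (ERSE), CCAAT and CCACG with 9 bases of any kind between them, which was found in 9 of 30 windows, as compared with 39 of all 32851 windows (0.119%). Of the 9, 8 were among the 13 chaperones and folding enzymes with a window, and the ninth was Syvn1. In the sequences, capitals mark the fixed letters of the element on the strand of the gene, 5′ to 3′, and where it lies on the other strand its reverse complement is in capitals.
Hspa5, chr2:34772020-34772048 (+): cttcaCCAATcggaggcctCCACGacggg
Dnajc3, chr14:118937822-118937850 (+): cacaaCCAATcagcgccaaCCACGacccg
Calr, chr8:84847070-84847098 (-): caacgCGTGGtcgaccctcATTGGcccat
Canx, chr11:50325795-50325823 (-): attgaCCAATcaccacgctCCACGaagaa
Ero1lb, chr13:12565677-12565705 (+): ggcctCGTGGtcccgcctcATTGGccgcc
Syvn1, chr19:6046527-6046555 (+): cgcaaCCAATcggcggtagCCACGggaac

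The Hspa5 stretch overlaps an exon of a longer transcript in the GENCODE annotation, while the others lie upstream of the annotated gene. Hsp90b1, Creld2 and Pdia6 also held the element, Hsp90b1 at 2 places. The related element ERSE-II, ATTGG and CCACG with 1 base between them, was found in Herpud1 alone, as compared with 0.0365% of all windows. The ATF4-binding element CARE, TGATGNAA, was found in 4 of 30 windows, those of Herpud1, Trib3, Chac1 and Asns, as compared with 3.97% of all windows. The Asns stretch overlaps an annotated exon, and those of Herpud1 and Chac1 lie upstream of the annotated gene. Trib3, Chac1 and Asns are 3 of the 5 genes of the integrated stress response. The XBP1-binding core TGACGTGG was found in none of the 30 and in 0.676% of all windows. A match is a description of letters and not a measured binding site, and the searched elements did not overlap each other in these windows.
Herpud1 (ERSE-II), chr8:94386372-94386392 (+): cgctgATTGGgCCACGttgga
Herpud1 (CARE), chr8:94386312-94386329 (+): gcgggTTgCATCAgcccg
Chac1 (CARE), chr2:119351044-119351061 (+): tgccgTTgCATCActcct
Asns (CARE), chr6:7693220-7693237 (-): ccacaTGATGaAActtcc

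As a group the 34 genes were highest in plasma-like and beta-like cells. Summed over all 34, they took 28850 CPM (26610 to 31220) in HAMS plasma-like cells and 28350 CPM (27040 to 29710) in HAMSAB plasma-like cells. Beta-like cells followed with 18080 CPM (17830 to 18330) and 20610 CPM (20290 to 20940). No other class passed 10210 CPM, the value of HAMS pDC-like (plasmacytoid dendritic) cells. Alpha-like cells, also a hormone-secreting class, had 6948 CPM in HAMS and 8264 CPM in HAMSAB. Cluster 5 was lowest, with 4305 CPM in HAMS and 4597 CPM in HAMSAB. The order of plasma-like, then beta-like, with cluster 5 last was also found when islet hormones, Actb and mitochondrial genes were left out of the totals, an alternative chosen after seeing the data because Actb took up to 37.7% of the UMIs of a class. The sums were then 32880 and 32250 CPM in plasma-like and 22880 and 25900 CPM in beta-like cells, and several classes of the middle ranks changed places.

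**Figure D1:**
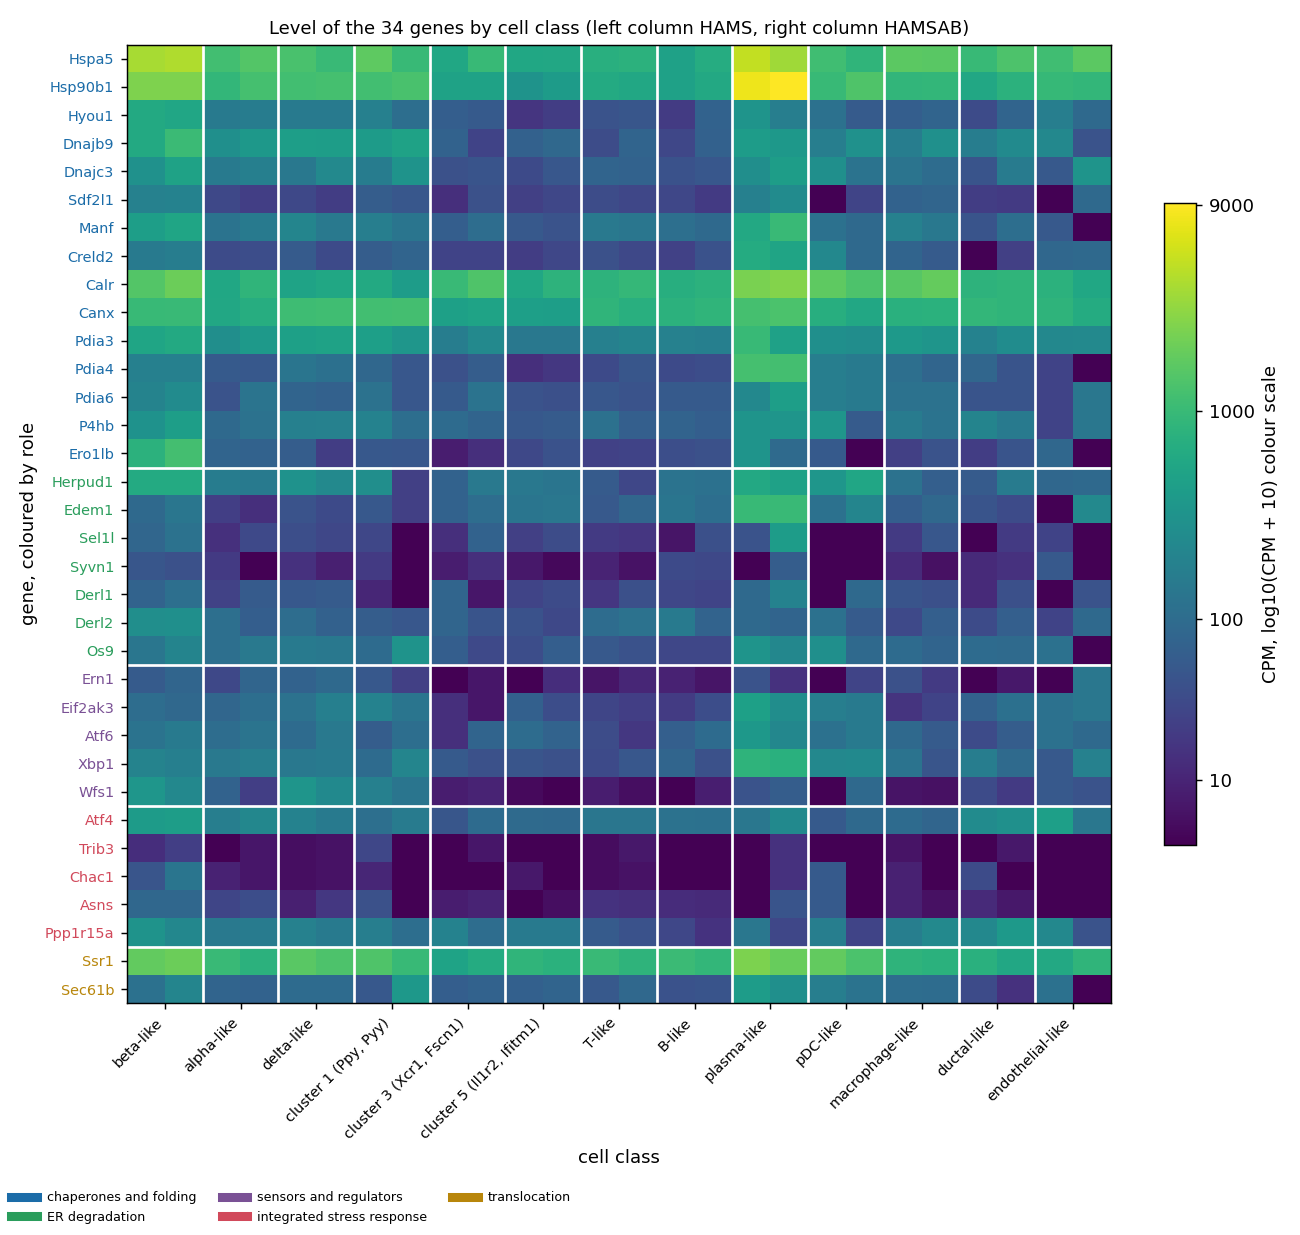
CPM of each of the 34 genes (rows, coloured by role) in each of the 13 classes (columns; left HAMS, right HAMSAB), on a log10(CPM + 10) colour scale. The brightest columns are plasma-like and beta-like; Hsp90b1 reached 7834 and 9224 CPM in plasma-like cells.

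Plasma-like and beta-like cells differed in which genes they held at the highest level. In both libraries 12 genes were highest in plasma-like cells: Hsp90b1, Manf, Creld2, Calr, Canx, Pdia4, Pdia6, Edem1, Derl1, Eif2ak3, Atf6 and Xbp1. In both libraries 7 were highest in beta-like cells: Hyou1, Dnajb9, Dnajc3, Ero1lb, Herpud1, Derl2 and Asns. The other 15 had a different top class in each library. These ranks have no UMI limit per class, and some lie within counting error. In HAMS plasma-like cells Derl1 had 2 UMIs (93.8 CPM, 11.4 to 339) and Pdia6 had 5 (235 CPM, 76.2 to 547). HAMS beta-like cells held 79.0 CPM (63.3 to 97.4) of Derl1 and 203 CPM (178 to 232) of Pdia6. Dnajc3 was at 307.8 CPM in HAMS beta-like cells and at 293.5 CPM (95.3 to 685) in HAMS pDC-like cells, there from 5 UMIs. Of the 27 genes with at least 500 UMIs over all classes, 16 were highest in plasma-like cells in HAMS (59.3%) and 12 in HAMSAB (44.4%), as compared with 11.2% and 8.23% of the 2248 genes with as many UMIs. In beta-like cells 9 of the 27 were highest in HAMS (33.3%) and 11 in HAMSAB (40.7%), as compared with 8.5% and 8.63% of these genes. Some of the 27 reached 500 UMIs mainly through beta-like cells, which gave 1756 of the 2009 UMIs of Ero1lb and 1091 of the 1531 of Hyou1. The same limit was set for the 2248 genes, and the beta-like shares are a description only. Plasma-like cells numbered 22 in HAMS and 58 in HAMSAB, and the 10 beta markers summed to 33870 CPM in the former and 9094 CPM in the latter, so that the HAMS plasma-like values carry more beta-cell transcripts.

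Hsp90b1, the ER member of the HSP90 chaperone family, was at 7834 CPM in HAMS and 9224 CPM in HAMSAB plasma-like cells, as compared with 2449 and 2428 CPM in beta-like cells and 319 and 414 CPM in cluster 5. The disulfide isomerase Pdia4 was at 1220 and 1181 CPM in plasma-like cells and at 186 CPM in beta-like cells of both libraries. Edem1, which passes misfolded glycoproteins on to degradation, was at 985 and 1019 CPM in plasma-like cells, with 93.5 and 134 CPM in beta-like cells. For these 3 genes the plasma-like value lay above that of every other class in both libraries. Xbp1, the transcription factor on which plasma cell secretion depends, was at 844 and 761 CPM in plasma-like cells. Next were pDC-like cells with 235 CPM (64.0 to 601) and 246 CPM (106 to 486), from 4 and 8 UMIs, a rank within counting error. Beta-like cells held 202 CPM (176 to 230) and 181 CPM (152 to 214) of Xbp1.

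Ero1lb, the ER oxidase that supplies disulfide bonds and is known from insulin-producing cells, had the opposite pattern. It was at 785 CPM (734 to 839) in HAMS and 1194 CPM (1117 to 1275) in HAMSAB beta-like cells. Plasma-like cells came next at 328 CPM (132 to 677) and 97.1 CPM (35.6 to 211), from only 7 and 6 UMIs. The beta-like level was 14.3 times the median of the 13 classes in HAMS and 25.9 times in HAMSAB. Hspa5, which encodes the central ER chaperone BiP, was at 4879 CPM in plasma-like and 3799 CPM in beta-like cells of HAMS, while in HAMSAB beta-like cells came first with 4111 CPM and plasma-like cells had 3479 CPM. All other classes were at or below 1710 CPM. Herpud1, a membrane protein of ER degradation, was at 639 and 635 CPM in beta-like cells. This was close to the 610 CPM of plasma-like cells in HAMS and the 554 CPM of pDC-like cells in HAMSAB. The lowest class in HAMS was T-like cells, at 61.4 CPM, level with ductal-like cells at 61.7 CPM. In HAMSAB it was cluster 1, at 26.7 CPM (0.68 to 149) from 1 UMI, a class at 285 CPM in HAMS. Wfs1, whose loss causes diabetes in Wolfram syndrome, was highest in beta-like and delta-like cells. Beta-like cells had 347 and 232 CPM and delta-like cells 346 and 244 CPM, so that these classes did not differ beyond their intervals in either library. Alpha-like cells had only 75.1 CPM in HAMS and 25.5 CPM in HAMSAB.

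Of the integrated stress response genes, Chac1, which encodes a glutathione-degrading enzyme, had 154 of its 176 UMIs in beta-like cells, at 49.9 CPM (37.6 to 65.0) in HAMS and 133 CPM (108 to 162) in HAMSAB. Asns, asparagine synthetase, was also highest there, with 89.0 and 87.1 CPM. Trib3, a pseudokinase induced by ATF4, had only 50 UMIs in all cells, and 35 of them were in beta-like cells. Atf4 itself was broadly present: it was at 409 and 440 CPM in beta-like cells and at 259 and 302 CPM in ductal-like cells. In the 57 endothelial-like cells of HAMS it was at 466 CPM (266 to 756) from 16 UMIs. In those of HAMSAB it was at 142 CPM (29.2 to 414) from 3 UMIs. The 10 beta markers summed to 25760 CPM in HAMS and 1795 CPM in HAMSAB endothelial-like cells, with 3 of them 2-fold lower. The 7 mesenchymal markers summed to 10010 and 18040 CPM there, above the 5677 and 4770 CPM of the 7 endothelial markers. The part of this RNA in the Atf4 values was not tested. As a group the 5 genes reached 887 and 909 CPM in beta-like cells.

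In beta-like cells (1364 in HAMS, 741 in HAMSAB), most folding genes lay somewhat higher in HAMSAB, and 1 gene differed by 2-fold or more. The median depth of these cells was 672.5 UMIs in HAMS and 811 UMIs in HAMSAB. All of the 34 genes except Trib3 had 50 UMIs. Of these 33, 24 had a ratio above 0, as compared with 51.8% of all 4701 genes, and their median ratio was 0.19, as compared with 0.02 over all genes. The same 51.8% stands beside the counts above 0 given below for parts of the 34 in this class. Only Chac1 was at least 2-fold higher, as compared with 1.57% of all genes, and none was 2-fold lower, as compared with 1.72%. At 1.5-fold, 6 were higher (Chac1, Sec61b, Dnajb9, Dnajc3, Os9 and Ero1lb; 10% of all genes) and none lower (8.87%). The share past 2-fold was therefore near that of all genes.

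**Figure D2:**
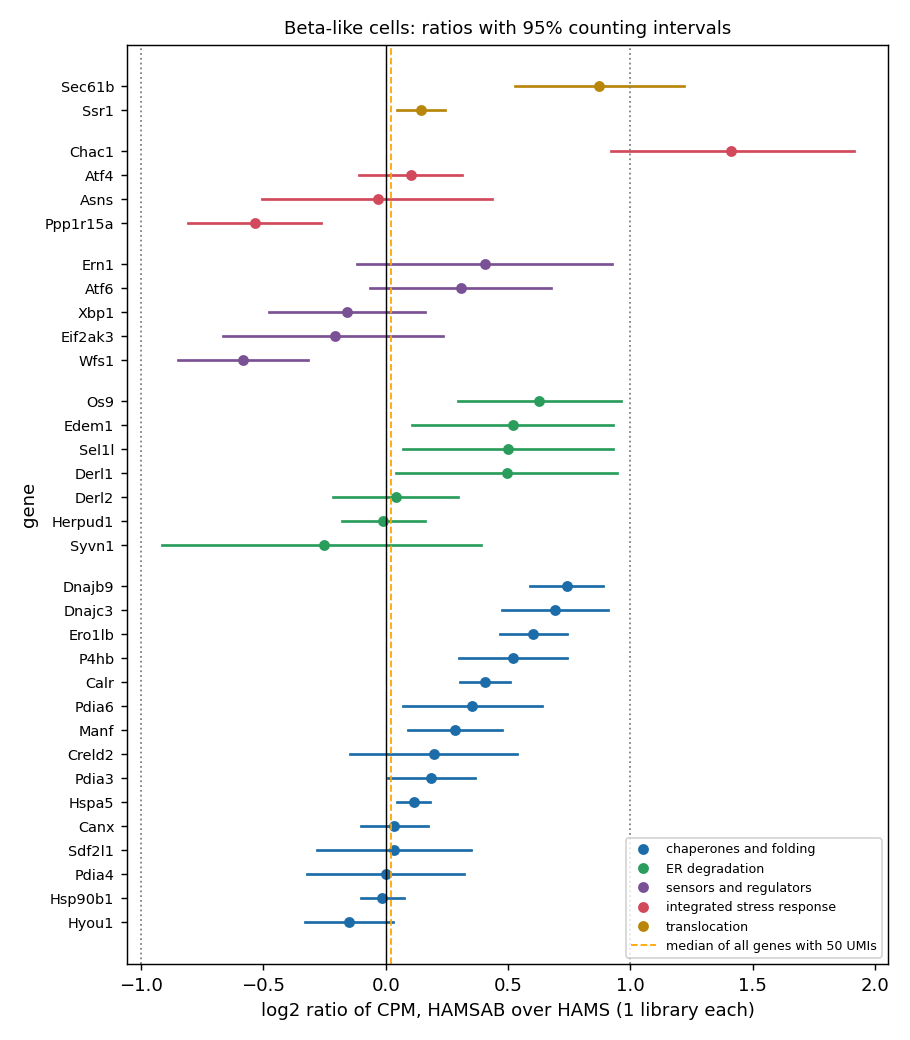
Log2 ratio of HAMSAB over HAMS CPM in beta-like cells (x axis) for the 33 genes with 50 UMIs (y axis, grouped by role), with 95% counting intervals; dotted lines mark 2-fold and the dashed line the median of all genes. Chac1 lies farthest right at 1.41, and Wfs1 (-0.58) and Ppp1r15a (-0.53) lie farthest left.

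Among chaperones and folding enzymes, 13 of 15 ratios were above 0 and the median was 0.20. Dnajb9, a co-chaperone that acts on BiP and IRE1, was at 628 CPM (582 to 677) in HAMS and 1049 CPM (977 to 1125) in HAMSAB, a ratio of 0.74 (0.59 to 0.89). Dnajc3, another BiP co-chaperone and an inhibitor of PERK, was at 308 CPM (276 to 342) and 497 CPM (448 to 550), a ratio of 0.69 (0.48 to 0.91). Ero1lb had a ratio of 0.60 (0.47 to 0.74), from the levels given above. For these 3 genes the counting intervals of the libraries did not overlap.

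The disulfide isomerase P4hb was at 315 and 452 CPM, a ratio of 0.52 (0.30 to 0.74), and the lectin chaperone Calr was at 1476 CPM (1405 to 1550) and 1956 CPM (1857 to 2059), a ratio of 0.41 (0.30 to 0.51). Other chaperones had ratios nearer 0. Hspa5 was at 3799 CPM (3685 to 3916) and 4111 CPM (3967 to 4259), a ratio of 0.11 (0.05 to 0.18). Hsp90b1 had a ratio of -0.01, Canx of 0.04, Pdia4 of 0.00 and Hyou1, the exchange factor of BiP, of -0.15 (-0.33 to 0.03).

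The 9 genes with an ER stress element in the promoter window did not share one ratio. Their ratios in beta-like cells ran from -0.25 (Syvn1) to 0.69 (Dnajc3), with a median of 0.20 and 7 of 9 above 0. The 20 genes with a window but without the element had a median of 0.12, with 14 above 0. Of the 3 genes with 50 UMIs and a CARE match, Chac1 was at 1.41, Herpud1 at -0.01 and Asns at -0.03.

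The ER degradation genes had a median ratio of 0.49, with 5 of 7 above 0. Os9, a lectin that selects glycoproteins for degradation, was at 136 CPM (115 to 160) in HAMS and 210 CPM (179 to 246) in HAMSAB, a ratio of 0.63 (0.30 to 0.96). Edem1 had a ratio of 0.52, the ligase adaptor Sel1l of 0.50 and the channel component Derl1 of 0.49, each from 83 to 103 UMIs per library. Herpud1, which organises the degradation complex, had by far the most UMIs of the 7 (704 and 474) and a ratio of -0.01, and Derl2 had 0.04. The median was 0.24 when each cell was weighted equally. The sum over the 7 genes was 1369 CPM in HAMS and 1548 CPM in HAMSAB, a ratio of 0.18 (0.07 to 0.29).

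The sensors and regulators had a median ratio of -0.16, with 2 of 5 above 0. Wfs1 was at 347 CPM (313 to 383) in HAMS and 232 CPM (199 to 269) in HAMSAB, a ratio of -0.58 (-0.85 to -0.32). Ern1 had a ratio of 0.41, Atf6 of 0.31, Xbp1 of -0.16 and Eif2ak3 of -0.21, and each of these 4 intervals included 0.

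The integrated stress response genes had a median ratio of 0.04, with 2 of 4 above 0, and they diverged. Chac1 had 55 UMIs in HAMS and 99 in HAMSAB, a ratio of 1.41 (0.92 to 1.91), and no single cell gave more than 3.25% of these UMIs. Ppp1r15a, the phosphatase subunit that ends the translational arrest, was at 324 CPM (291 to 360) and 224 CPM (191 to 260), a ratio of -0.53 (-0.81 to -0.27). Atf4 had a ratio of 0.10 and Asns of -0.03. Trib3, below the limit of 50 UMIs, had 16 and 19 UMIs.

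Ppp1r15a also belongs to the genes that respond quickly when tissue is dissociated. A list of 24 immediate early and dissociation genes was lower in HAMSAB beta-like cells for 16 of the 22 with 50 UMIs. Of all genes in these cells, 51.8% had a ratio above 0. The list had a median ratio of -0.29 and a sum of 21760 CPM in HAMS and 17030 CPM in HAMSAB. The part of this difference in the ratio of Ppp1r15a was not tested.

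The translocation channel is the route by which new proteins enter the ER. Of the 34, in beta-like cells, Sec61b, a channel subunit, was at 117 CPM (97.8 to 139) in HAMS and 214 CPM (183 to 250) in HAMSAB, a ratio of 0.87 (0.53 to 1.22), and Ssr1, a subunit of the channel-associated TRAP complex, had a ratio of 0.15 (0.05 to 0.24). Of 27 other genes of signal recognition, translocation, glycosyl transfer and signal cleavage, all 27 had a ratio above 0 in beta-like cells, as compared with 51.8% of all genes, with a median of 0.51. They ran from 0.13 (Srpr, with an interval that included 0) to 1.13 (Ssr4), and 3 of them were at least 2-fold higher, as compared with 1.57% of all genes. Within the beta-like clusters 20 of 20, 20 of 22 and 15 of 18 were above 0 in clusters 2, 9 and 12, with Dad1 at -0.25 in cluster 9 and Srp9 at -0.58 in cluster 12 the lowest. The median over all genes was 0.12, -0.09 and -0.06 in these clusters, so that all genes also lay somewhat higher in cluster 2. The share of all genes above 0 in each cluster is not given here. Their sum was 4704 CPM in HAMS and 6598 CPM in HAMSAB, a ratio of 0.49 (0.43 to 0.55). In alpha-like cells the same list had 6 of 9 above 0 (41.9% of all genes) and in delta-like cells 8 of 17 (57.2% of all genes); the difference between classes was not tested.

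Other genes of each pathway arm were read the same way in beta-like cells, where 51.8% of all genes were above 0. Of the other folding genes, 16 of 21 with 50 UMIs were above 0, with a median of 0.41 and the prolyl isomerase Fkbp11 highest at 1.17. Of the other ER degradation genes, 12 of 15 were above 0, with a median of 0.16. Of the other integrated stress response genes, 11 of 21 were above 0, with a median of 0.02, near the 0.02 of all genes; Mthfd2, of mitochondrial folate metabolism, was highest at 0.82 and Atf5 lowest at -0.57.

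**Figure D3:**
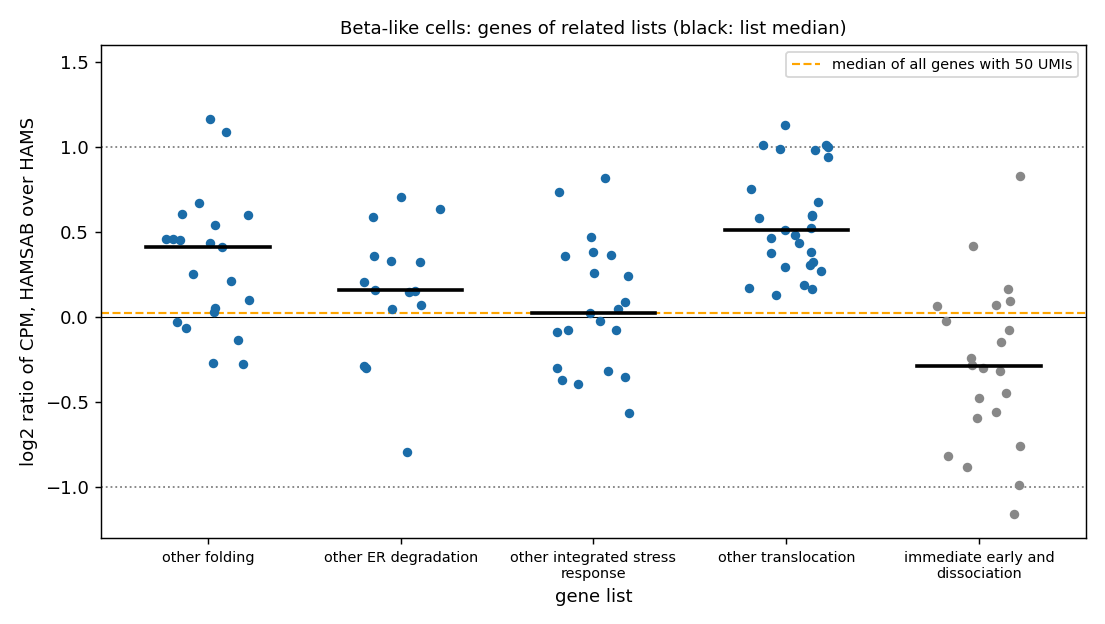
Log2 ratios of HAMSAB over HAMS CPM in beta-like cells (y axis) for genes outside the 34, by list (x axis), each point 1 gene with 50 UMIs; black bars are list medians, the dashed line is the median of all genes and dotted lines mark 2-fold. All 27 translocation genes lie above 0, while 16 of 22 immediate early and dissociation genes lie below. Of all genes, 51.8% lie above 0.

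RNA of other cell types in the beta-like class also differed between the libraries. The 7 delta markers summed to 2939 CPM in HAMS and 592 CPM in HAMSAB, with 2 of them 2-fold lower and Ghsr at 0 in both. The 7 plasma cell markers summed to 94.4 and 348 CPM, with 2 of them 2-fold higher and Tnfrsf17 at 0 in both; within plasma-like cells they summed to 106200 and 103100 CPM. The 8 acinar markers summed to 1.82 and 67.0 CPM, with Amy2a5 at 0 in both. The part of these differences in the ratios was not tested.

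Beta-like cells came from 3 clusters in different proportions. Cluster 2, led by Ins1 and Ppp1r1a, held 46.3% of HAMS and 33.6% of HAMSAB beta-like cells, cluster 9, led by Mafa, Slc2a2 and Ucn3, held 39.9% and 43.3%, and cluster 12, led by interferon-induced genes such as Gbp4 and Iigp1, held 13.9% and 23.1%. Levels differed between the clusters within a library: Hspa5 in HAMS was at 2835 CPM in cluster 2, 4104 CPM in cluster 9 and 5597 CPM in cluster 12. In HAMSAB it was at 3366, 4408 and 4217 CPM.

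**Figure D4:**
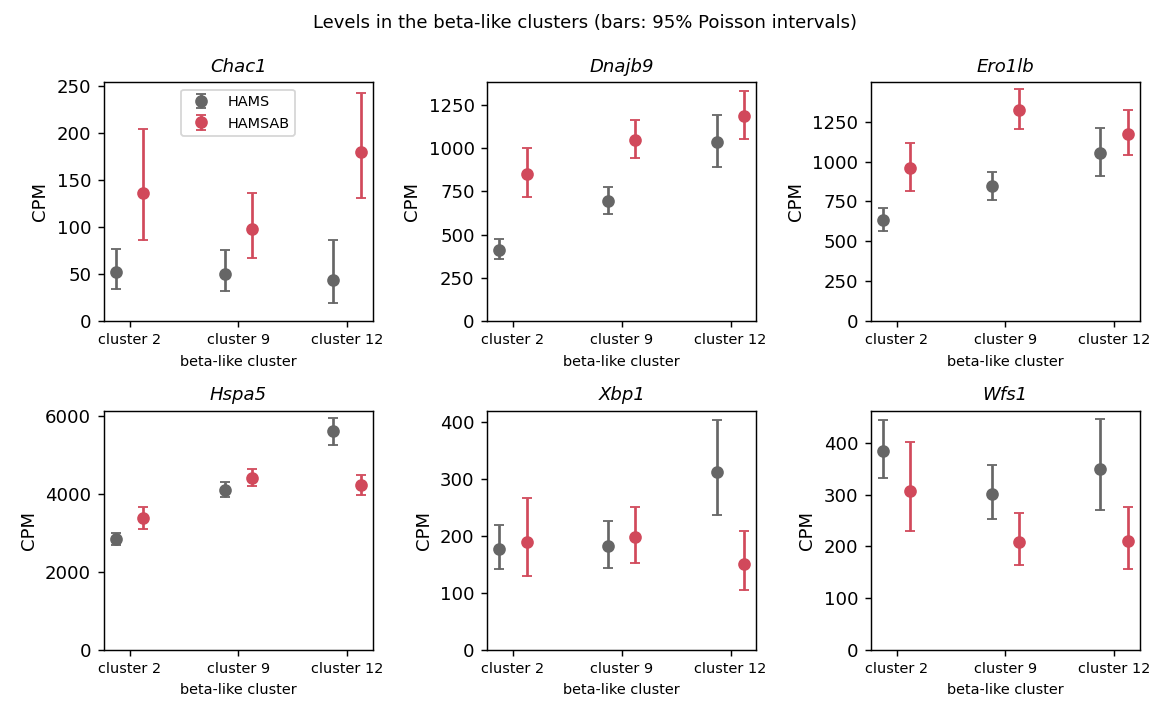
CPM (y axis) of 6 genes in the 3 beta-like clusters (x axis), grey for HAMS and red for HAMSAB, with 95% Poisson intervals. Hspa5 was higher in HAMSAB in cluster 2 (3366 against 2835 CPM) and lower in cluster 12 (4217 against 5597 CPM), whereas Chac1 was higher in HAMSAB in all 3 clusters.

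Within the clusters the ratio of Hspa5 therefore had no common direction, at 0.25 (0.10 to 0.39), 0.10 (0.00 to 0.20) and -0.41 (-0.54 to -0.28) in clusters 2, 9 and 12. Dnajb9 was above 0 in each, at 1.04 (0.72 to 1.36), 0.60 (0.37 to 0.82) and 0.20 (-0.07 to 0.47), with the last interval including 0. Ero1lb was at 0.60, 0.65 and 0.16, and Dnajc3 at 0.55, 0.54 and 0.64. Sec61b was at 0.92, 0.82 and 0.73. These differences between clusters were not tested.

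Chac1 was at 1.38 (0.50 to 2.26) in cluster 2 from 25 and 23 UMIs, below the limit of 50, at 0.96 (0.14 to 1.81) in cluster 9 and at 2.04 (0.94 to 3.34) in cluster 12 from 8 and 43 UMIs. Wfs1 was below 0 in each, at -0.33, -0.53 and -0.74, and so was Ppp1r15a, at -0.45, -0.40 and -0.98. Xbp1 was near 0 in clusters 2 and 9 (0.09 and 0.12) and at -1.05 (-1.69 to -0.42) in cluster 12, from 57 and 36 UMIs. Over all of the 34 genes with 50 UMIs, the median was 0.26 in cluster 2, 0.21 in cluster 9 and 0.04 in cluster 12, as compared with 0.12, -0.09 and -0.06 over all genes. The clusters had 1, 0 and 2 of the genes past 2-fold, as compared with 5.93%, 3.4% and 5.97% of all genes. These genes were Dnajb9 in cluster 2 and Chac1 and Xbp1 in cluster 12.

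The authors' deposited table for beta cells, which lists 115 genes of which 54 were higher in HAMSAB, holds 7 of the 34 genes, all 7 higher in HAMSAB. In the authors' deposited table Dnajb9 has a log2 fold change of 0.66 with an adjusted p of 7.84e-09, and Ero1lb has 0.45 with 4.55e-05. In the authors' deposited table Dnajc3 (0.46), Calr (0.27), P4hb (0.29), Manf (0.24) and Ssr1 (0.23) have adjusted p-values of 0.0717 or above. These p-values rest on cells of the same 2 libraries and are no test across mice. Chac1 and Sec61b are not among the 115 genes of the authors' deposited table.

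The other endocrine classes had fewer genes with 50 UMIs. In alpha-like cells (438 in HAMS, 260 in HAMSAB), 15 of the 17 genes with 50 UMIs were above 0, as compared with 41.9% of all 1553 genes, with a median of 0.34 against -0.09. None was past 2-fold, as compared with 4.89% of all genes. Calr was at 576 and 851 CPM, a ratio of 0.56 (0.25 to 0.87), Hsp90b1 at 905 and 1233 CPM, a ratio of 0.45 (0.19 to 0.70), and Hspa5 at 1149 and 1467 CPM, a ratio of 0.35 (0.13 to 0.58). Ssr1 went the other way, from 1011 to 800 CPM, a ratio of -0.34 (-0.62 to -0.06).

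Plasma cell markers in the alpha-like class summed to 28.2 CPM in HAMS and 1004 CPM in HAMSAB, with 2 of 7 at least 2-fold higher and Ighg2c and Tnfrsf17 at 0 in both libraries. Beta markers there summed to 5490 and 1579 CPM. Both beta-like and plasma-like cells hold the chaperones at higher levels than alpha-like cells, and the part of this RNA in the alpha-like ratios was not tested.

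Delta-like cells (451 and 335) showed no common direction: 11 of 23 genes were above 0, as compared with 57.2% of all 1887 genes, and the median was 0.00 against 0.07. None was past 2-fold (2.33% of all genes). Hspa5 was at 1286 and 1008 CPM, a ratio of -0.35 (-0.58 to -0.13). Wfs1 was at 346 and 244 CPM, a ratio of -0.50 (-0.97 to -0.05), which was 0.06 when only cells with 500 genes or more were used. Dnajc3 was at 145 and 236 CPM, a ratio of 0.70 (0.14 to 1.27). Ssr1 was at -0.22 (-0.42 to -0.02). In cluster 1, 7 genes had 50 UMIs and Hspa5 was at 1710 and 989 CPM, a ratio of -0.79 (-1.35 to -0.27); none was past 2-fold (7.56% of all genes). The 10 beta markers in cluster 1 summed to 19690 CPM in HAMS and 2272 CPM in HAMSAB, with 3 of them 2-fold lower, the 8 alpha markers to 22810 and 8766 CPM, with 1 of them 2-fold lower and Slc38a5 at 0 in both, and the 7 delta markers to 11340 and 1016 CPM, with 1 of them 2-fold lower. In delta-like cells the 10 beta markers summed to 9635 and 8789 CPM, with 2 of them 2-fold lower, and the 8 alpha markers to 10560 and 5191 CPM, with 1 of them 2-fold lower. The part of this RNA in the ratios of Hspa5 and the other genes of these classes was not tested.

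**Figure D5:**
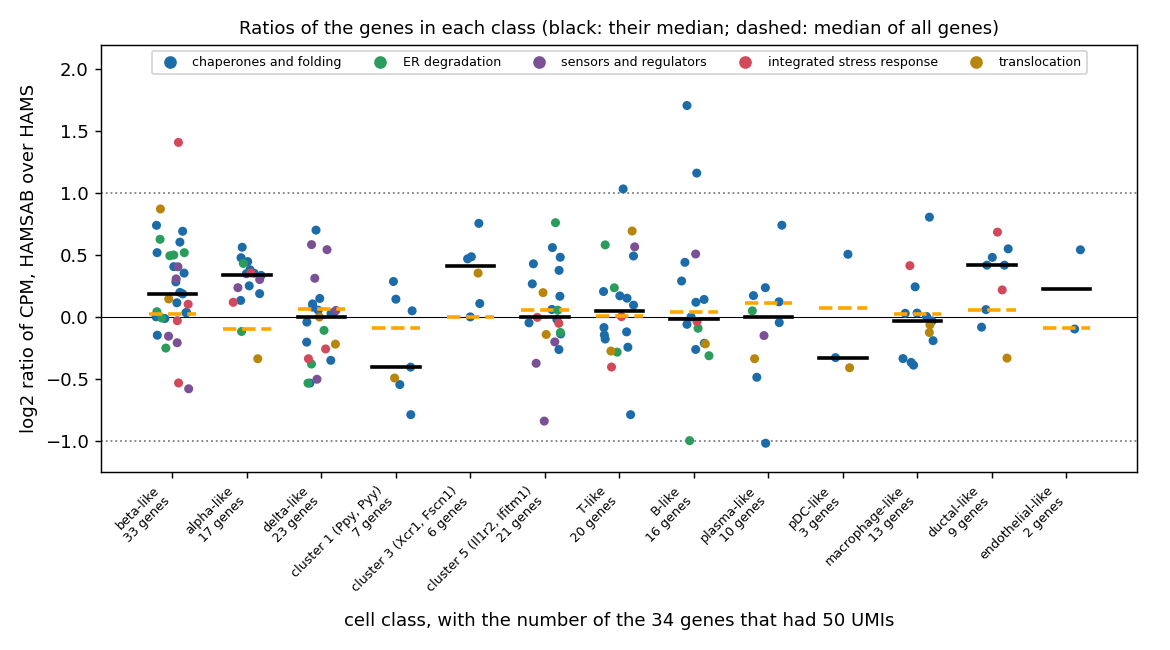
Log2 ratio of HAMSAB over HAMS CPM (y axis) of each of the 34 genes that had 50 UMIs in a class (x axis, with their number), coloured by role; black bars are the medians of these genes, dashed bars the medians of all genes, dotted lines 2-fold. The black bar lies above the dashed one in beta-like (0.19 against 0.02) and alpha-like cells (0.34 against -0.09).

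Among immune classes, few genes passed 2-fold and each rested on few UMIs. In T-like cells 11 of 20 genes were above 0 (50.8% of all genes), and Dnajb9 alone was past 2-fold (3.32% of all genes), with 16 UMIs in HAMS and 59 in HAMSAB, a ratio of 1.03 (0.22 to 1.93). P4hb was at 118 and 68.2 CPM there, a ratio of -0.79 (-1.39 to -0.19). In B-like cells 7 of 16 were above 0 (52.7% of all genes) and 3 were past 2-fold (4.06% of all genes). These were Hyou1 at 1.71 (0.39 to 3.39) from 5 and 49 UMIs, Dnajb9 at 1.16 (0.01 to 2.55) from 7 and 47 UMIs, and Derl2 at 157 and 78.4 CPM from 34 and 51 UMIs, with an interval of -1.65 to -0.33. With cells thinned to 500 UMIs, and cells with fewer left out, Dnajb9 in T-like cells was at 0.04 and Hyou1 in B-like cells at 0.18. Neither was then past 2-fold. Beta markers in B-like cells summed to 1034 CPM in HAMS and 2635 CPM in HAMSAB.

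In plasma-like cells, 5 of 10 genes were above 0 (54.5% of all genes). Pdia3, a disulfide isomerase that works with the lectin chaperones, was at 985 and 486 CPM, a ratio of -1.02 (-1.87 to -0.14) from 21 and 30 UMIs, and was alone past 2-fold (10.6% of all genes). When the 5% of cells with the most UMIs were left out, its ratio was -0.02. Hspa5 was at -0.49 (-0.83 to -0.14) and Hsp90b1 at 0.24 (-0.02 to 0.49) in these cells.

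No gene passed 2-fold in cluster 3, cluster 5, macrophage-like, pDC-like, ductal-like or endothelial-like cells. Of all genes in these classes 3.56%, 2.77%, 3.58%, 5.15%, 6.53% and 17.2% did, in the same order. In cluster 5, 10 of 21 genes were above 0 (55% of all genes), and in macrophage-like cells 6 of 13 (51.6% of all genes). In cluster 3, Hspa5 was at 577 and 974 CPM, a ratio of 0.76 (0.37 to 1.16). In cluster 5, Calr was at 578 and 807 CPM, a ratio of 0.48 (0.28 to 0.69), and Eif2ak3 at 72.2 and 40.3 CPM, a ratio of -0.84 (-1.60 to -0.10). In macrophage-like cells Dnajb9 was at 168 and 294 CPM, a ratio of 0.81 (0.23 to 1.40). In ductal-like cells Hspa5 was at 987 and 1378 CPM, a ratio of 0.48 (0.11 to 0.86), and 7 of 9 genes were above 0 (55.7% of all genes). With cells assigned singly from marker scores, the ductal-like ratio of Hspa5 was -0.20.

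Some genes had the same direction in most classes. Dnajb9 was above 0 in 8 of the 9 classes where it had 50 UMIs, the exception being delta-like cells at -0.04. Calr was above 0 in 10 of 12 classes, with an interval above 0 in 6 and below 0 in none. Hsp90b1 was above 0 in 9 of 13, with an interval above 0 in only 2. Hspa5 was above 0 in 8 of 12, but its interval lay above 0 in 5 classes and below 0 in 3. Of all genes, 41.9% (alpha-like) to 57.2% (delta-like) were above 0 in the classes where this share is given. Ssr1 was above 0 in 2 of 12, beta-like cells and cluster 3, and Herpud1 in none of 5. Wfs1 was below 0 in both classes where it had 50 UMIs, beta-like and delta-like cells, although the delta-like ratio was 0.06 in cells with 500 genes or more. These classes come from the same 2 libraries and hold RNA of one another, so they are not repeats of the diet comparison.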

How the data were processed

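Islet cells of 2 libraries, 1 per diet and grouped by the treatment label, were read from the deposited matrices. Per the file headers Cell Ranger 5.0.0 wrote them, and they hold the authors' UMI counts per gene and barcode without scaling. The submitters' processing notes name Seurat and the builds GRCm38 and mm10. Settings for calling cells and the test behind the authors' tables: not given in the sources used here. From those deposited tables only log2 fold changes and adjusted p-values were copied.

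Cells needed 200 genes and no more than 20% of UMIs from mitochondrial genes, which kept 4185 of 4352 HAMS and 4628 of 5022 HAMSAB barcodes. The libraries held 3599756 and 4254040 UMIs and shared 6 barcodes. Scrublet marked 0.0454% of cells, which was taken as a failed call, so doublets remain. Clustering used scanpy 1.11.5 (2000 variable genes without the 34 genes and related lists, 30 principal components, 15 neighbours, Leiden resolution 1). A cluster was named from at least 3 detected markers. No acinar-like class was used, since it had fewer than 20 cells in a library. Counts were summed per class and library. Levels have exact Poisson intervals and ratios exact conditional binomial intervals; their coverage was tested on simulated data. PCR copies were collapsed by UMI.

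Named for each class were genes at least 2-fold apart and the genes whose intervals lay farthest from 0 at each end (3 at each end in the named endocrine classes, 1 elsewhere); for levels, Hspa5, Xbp1, Chac1, Herpud1 and genes with a wide range over classes. Other beta-like genes were named after their values were seen. The 34 genes and all lists were chosen with earlier results of these data known. Promoter windows are RefSeq's (GRCm38.p6), and exons GENCODE's for GRCm38. Alternatives varied the cell filters, clustering, cell classing, totals, weighting, depth, UMI limit and beta-like cluster.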

Additional observations from a re-analysis of the deposited data

Results flagged for a closer look

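Of the 34 genes, 4 had a ratio whose counting interval lay above 0 in one class and below 0 in another. Hspa5 was at 0.76 in cluster 3 and -0.79 in cluster 1, where beta markers summed to 19690 CPM in HAMS and 2272 CPM in HAMSAB. P4hb was at 0.52 in beta-like and -0.79 in T-like cells. Pdia3 was at 0.48 in alpha-like and -1.02 in plasma-like cells, the latter -0.02 without the 5% of cells of highest UMI count. Ssr1 was at 0.15 in beta-like and -0.28 in T-like cells. The differences between classes were not tested, since each ratio comes from the same 2 libraries.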

How the results depend on the processing

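Under all alternatives run, the median ratio of the 34 genes in beta-like cells ran from 0.04 (cluster 12) to 0.26 (cluster 2). The median of the chaperones ran from 0.07 to 0.29 and that of the ER degradation genes from 0.24 to 0.51. That of the integrated stress response genes ran from -0.18 to 0.21 and so had no stable sign. These medians stayed within the medians of the single-gene interval bounds, a wide range that is not an interval of the median itself. The number of genes past 2-fold was 0 in cluster 9 alone, 2 in cluster 12 alone and 6 at a limit of 1.5-fold. For single genes, 236 of 249 values in 30 pairs of gene and class stayed within the interval of the reported value. Signs changed in 2 pairs: Wfs1 in delta-like cells had 0.06 once cells had to show 500 genes, and Hspa5 in ductal-like cells at -0.20 with cells assigned singly from marker scores. Thinned to 500 UMIs per cell, Dnajb9 in T-like cells was at 0.04, Hyou1 in B-like cells at 0.18 and Hsp90b1 in alpha-like cells at 0.11. Thinning also left out cells with fewer than 500 UMIs, so that 961 HAMS and 596 HAMSAB beta-like cells remained. With 500 genes required in a cell, Chac1 in beta-like cells was at 1.94, Dnajb9 at 0.56 and Hspa5 at 0.03. Causes were not tested. Chosen after seeing the data, the same alternatives gave medians of 0.36 to 0.51 for the other translocation genes and -0.35 to -0.25 for the dissociation genes. Unnamed clusters have no value where cells were clustered anew, since their numbers do not carry over. No paired analysis was possible because each diet has 1 library and the labels give no replicate numbers. Depth limits the sparse genes: with under 100 UMIs a ratio's interval spans about a 2-fold range or more.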
